A study of Mus musculus with 10 samples.

Results

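Cholesterol is made in the cell, taken up, sensed and exported, and 34 mouse genes of these steps were followed in a colon adenocarcinoma line (MC38) and a melanoma line (B16). The genes were taken from a list by function, and not by a threshold on measured values, although the list was drawn up with earlier results of these data known. All 34 were matched to a row among the 60676 genes and loci of the count table. They fell into 7 enzymes of the mevalonate and isoprenoid steps, 11 enzymes from squalene to cholesterol, 7 genes that sense sterols and process the SREBP factors, 5 genes of uptake, transfer and storage, and 4 genes of LXR signalling and efflux. Transcripts were measured by RNA sequencing in 10 libraries. The cells of all 10 carried a knockdown of Sdc1, the gene of the heparan sulphate proteoglycan syndecan-1, and every culture had received the cytokine interferon gamma (IFNγ, 10 ng/ml) over 24 h. MC38 had 3 groups of 2 libraries: knockdown only, knockdown with a c30 mutant of Sdc1, and knockdown with an ect mutant. B16 had 2 groups of 2 libraries, knockdown only and knockdown with wild-type Sdc1. The labels do not say what c30 and ect change, whether each line is 1 clone, what drives the re-expressed forms or whether the 2 samples of a group were separate cultures, so the p-values below rest on a spread that may be technical and reflect no more than the difference between these samples. Cells that kept their own Sdc1, had no IFNγ or carried an empty vector were not analysed here.

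Animal cells make cholesterol from acetyl-CoA through mevalonate and squalene, and the early steps also supply isoprenoids for proteins, dolichol and ubiquinone. When membrane sterol is low, the carrier Scap takes the precursor factors encoded by Srebf1 and Srebf2 from the endoplasmic reticulum to the Golgi, where the proteases encoded by Mbtps1 and Mbtps2 release the active factor, which raises transcription of the synthesis enzymes. When sterol is high, the Insig proteins hold Scap back, and oxysterols switch on the LXR receptors (Nr1h2, Nr1h3), which raise the exporters Abca1 and Abcg1. Tumour cells often draw heavily on this pathway as they grow, and interferons are known to lower sterol synthesis in macrophages.

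Total counts ranged from 11349447 to 15041133 per library, so that 3 counts, the limit a count of 0 allows, corresponded to 0.199 to 0.264 CPM (counts of a gene per 1000000 counts of a library). Levels of single genes are given below as CPM of library sizes normalized together over all 10 libraries by edgeR's TMM method. Sdc1 was at 24.1 and 29.5 CPM in the MC38 knockdown libraries, 94.7 and 99.0 with c30 and 22.3 and 24.8 with ect, and at 41.6 and 43.2 CPM in the B16 knockdown and 73.1 and 58.6 with wild-type Sdc1. The ect libraries thus overlapped the knockdown and showed no added Sdc1 transcript, so that below "with ect" means the libraries labelled ect. A count per gene does not separate the cell's own transcript from a re-expressed form. Of 10 melanocyte markers, 9 or 10 reached 1 CPM in each B16 library, with sums of 13720.3 to 14529 CPM of the library total. In MC38 only 2 or 3 of 12 intestinal and epithelial markers reached 1 CPM, so defining colon genes such as Cdx2 were at or near 0. MC38 melanocyte markers summed to 6.33 to 7.93 CPM, except 12.9 CPM in c30 replicate 2, with Oca2, Gpr143 and Slc45a2 at 0 in all 6 MC38 libraries.

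**Figure D1:**
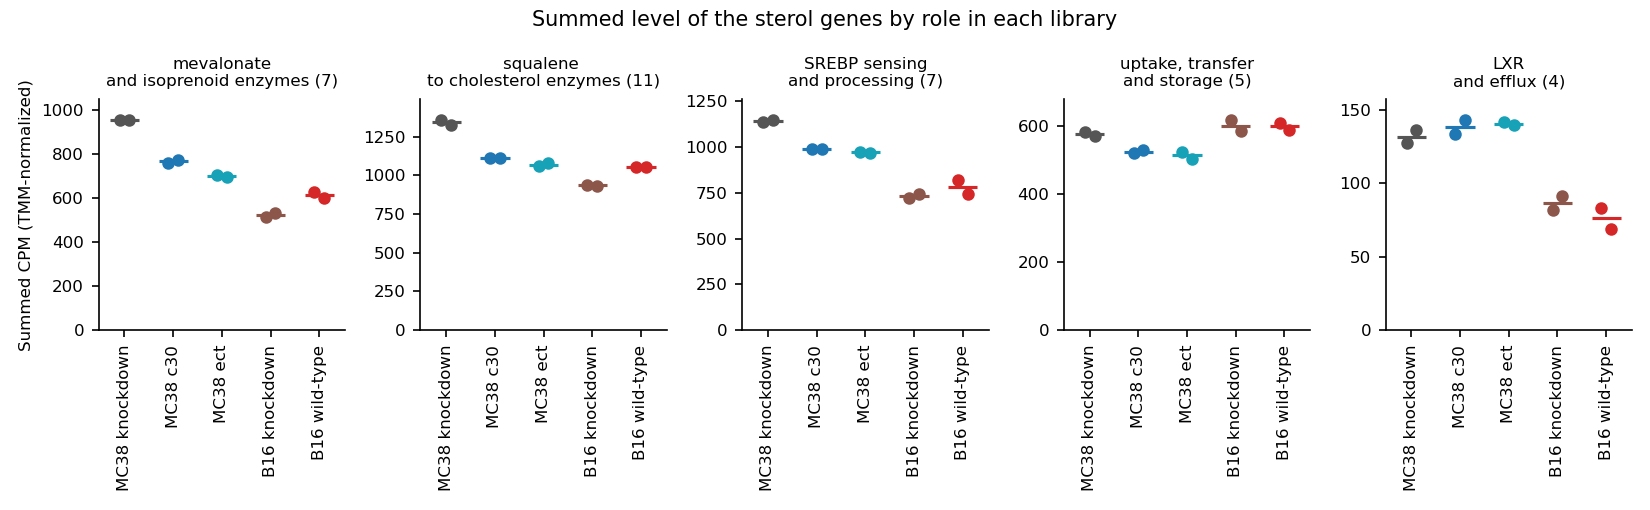
Summed level (CPM, TMM-normalized) of the sterol genes of each role in each library. Points are libraries, bars are the means of 2 libraries, and the number of genes is in brackets. Both MC38 groups labelled with a mutant form of Sdc1 lay below the knockdown in the first 4 panels, and the B16 wild-type libraries lay above the B16 knockdown in the first 3, by a narrow margin in the third.

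In MC38, enzymes along most of the length of the cholesterol pathway were lower in the libraries labelled with either mutant form of Sdc1 than in the knockdown libraries, although those labelled ect had no more Sdc1 transcript than the knockdown. The 18 synthesis enzymes together held 2314 and 2282 CPM in the knockdown libraries, 1875 and 1887 CPM with c30 and 1767 and 1775 CPM with ect. The groups did not overlap, and the mean sum was 18.1% lower with c30 and 22.9% lower with ect. With c30, 11 of the 18 enzymes passed as lower and 0 as higher (edgeR's quasi-likelihood test with Benjamini-Hochberg adjustment over all genes, adjusted p under 0.05), where 4.45% of the 15031 genes tested passed as lower and 3.3% as higher. With ect, 12 of the 18 passed as lower and 0 as higher, where 4.61% of the 15031 genes passed as lower and 3.55% as higher. All 18 had a log2 fold change below 0 with both forms, with a median of -0.30 with c30 and -0.37 with ect against 0.00 over all genes. A lower count in a bulk library can come from fewer cells with the transcript or from less of it per cell, which cannot be told apart. Both comparisons used the same 2 knockdown libraries.

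Of the mevalonate and isoprenoid enzymes, 5 of 7 were lower with c30 and 6 of 7 with ect. Mvd (ENSMUSG00000006517.6), which decarboxylates mevalonate diphosphate, was at 84.1 and 99.8 CPM in the knockdown, 63.4 and 64.3 CPM with c30 and 53.3 and 55.2 CPM with ect. The knockdown libraries were the highest and both ect libraries the lowest, with no overlap. It was 1.44-fold lower with c30 on the fitted scale, a log2 fold change of -0.52 (SE 0.07, edgeR adjusted p = 2.96e-08), and 1.69-fold lower with ect, at -0.76 (SE 0.07, edgeR adjusted p = 9.37e-14). Hmgcs1 (ENSMUSG00000093930.3), the cytosolic HMG-CoA synthase, was at 189.8 and 189 CPM in the knockdown, 147 and 156 CPM with c30 and 136 and 146 CPM with ect. Its 2 knockdown libraries were nearly equal and stood above the other 4, while the c30 and ect groups were separated by a narrow margin. The log2 fold change was -0.32 (SE 0.05, edgeR adjusted p = 6.04e-06) with c30 and -0.42 (SE 0.05, edgeR adjusted p = 2.84e-09) with ect.

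Fdps (ENSMUSG00000059743.13), the farnesyl diphosphate synthase whose product feeds both squalene and protein prenylation, was at 337 and 333 CPM in the knockdown, 275 and 282 CPM with c30 and 244 and 239.6 CPM with ect. The 3 groups formed 3 separate steps with no overlap. Its log2 fold change was -0.27 (SE 0.05, edgeR adjusted p = 1.86e-05) with c30 and -0.47 (SE 0.05, edgeR adjusted p = 6.27e-13) with ect. Idi1, which isomerizes isopentenyl diphosphate, was at 104 and 98.3 CPM in the knockdown, 80.5 and 76.9 CPM with c30 and 80.9 and 82.3 CPM with ect. It stood apart from Fdps in that the c30 libraries, not the ect libraries, were the lowest, although c30 and ect did not differ by the test (-0.05 (SE 0.06, edgeR adjusted p = 0.886)). Acat2, which condenses acetyl-CoA at the head of the pathway, went from 170.0 and 157 CPM to 138 and 127 CPM with c30 and 133 and 119 CPM with ect, with log2 fold changes of -0.30 (SE 0.06) and -0.38 (SE 0.06). Both mutant groups lay below the knockdown and overlapped each other. The kinase gene Mvk was at 42.2 and 44.5 CPM, 34.9 and 39.9 CPM and 33.4 and 32.6 CPM in the same order of groups. It passed with ect (-0.39 (SE 0.09, edgeR adjusted p = 0.00227)) and not with c30 (-0.21 (SE 0.09, edgeR adjusted p = 0.169)), and the difference between c30 and ect did not pass (0.18 (SE 0.10, edgeR adjusted p = 0.603)). The next kinase, Pmvk, passed with neither form, at -0.25 (SE 0.11) with c30 and -0.31 (SE 0.11) with ect (edgeR adjusted p = 0.164 and 0.0585).

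From squalene onwards, 6 of 11 enzymes were lower with each form, and these were the same 6 genes: Fdft1, Sqle, Lss, Cyp51, Msmo1 and Nsdhl. Sqle (ENSMUSG00000022351.15), the squalene epoxidase and a control point of the pathway, was at 236 and 237 CPM in the knockdown, 183 and 195 CPM with c30 and 183 and 183 CPM with ect. The knockdown stood clear of all 4 other MC38 libraries. The log2 fold change was -0.32 (SE 0.05, edgeR adjusted p = 1.54e-06) with c30 and -0.37 (SE 0.05, edgeR adjusted p = 3.13e-08) with ect. Cyp51 (ENSMUSG00000001467.6), which removes a methyl group from lanosterol, was at 254 and 247 CPM, 204 and 189 CPM and 184 and 197 CPM in knockdown, c30 and ect. Again the knockdown libraries were the 2 highest, and the c30 and ect libraries overlapped. Its log2 fold change was -0.35 (SE 0.05, edgeR adjusted p = 2.80e-07) with c30 and -0.39 (SE 0.05, edgeR adjusted p = 8.61e-09) with ect. Lss (ENSMUSG00000033105.13), which closes the sterol rings, was at 169 and 165 CPM, 131 and 128 CPM and 132 and 132 CPM in the same order. The c30 libraries were slightly below the ect libraries and both were below the knockdown, with -0.37 (SE 0.05, edgeR adjusted p = 3.73e-07) for c30 and -0.34 (SE 0.05, edgeR adjusted p = 1.77e-06) for ect.

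Fdft1, the squalene synthase at the branch towards sterols, was at 155 and 155 CPM in the knockdown, 124 and 127 CPM with c30 and 111 and 120.1 CPM with ect. No library of a mutant form reached the knockdown, and the log2 fold change was -0.30 (SE 0.06) with c30 and -0.42 (SE 0.06) with ect. Nsdhl, which acts in the removal of the C4 methyl groups, was at 73.5 and 68.4 CPM, 52.9 and 59.5 CPM and 49.2 and 49.5 CPM. Its fall with ect (-0.52 (SE 0.08, edgeR adjusted p = 2.11e-07)) was the second largest of the 18 enzymes after Mvd, and with c30 it was -0.33 (SE 0.08). Msmo1, the methyl sterol oxidase of the same step, was at 180.3 and 164 CPM, 144 and 147 CPM and 136 and 135 CPM, with -0.24 (SE 0.05) and -0.35 (SE 0.05). The remaining 5 enzymes passed with neither form. Among them the late enzymes Ebp, Sc5d and Dhcr7 had log2 fold changes of -0.03, -0.04 and -0.11 with c30 and -0.14, -0.08 and -0.17 with ect. Sc5d, the sterol C5 desaturase, was at 100.1 and 107 CPM in the knockdown, 98.8 and 103 CPM with c30 and 98.9 and 96.5 CPM with ect, and its 95% interval with c30 was -0.15 to 0.08. Tm7sf2, a sterol C14 reductase, was at only 14.2 and 14.0 CPM in the knockdown and had -0.43 (SE 0.16, edgeR adjusted p = 0.0836) with c30 and -0.37 (SE 0.15, edgeR adjusted p = 0.140) with ect, with the widest SE of the 18 enzymes. Hsd17b7, a 3-ketosterol reductase, had -0.20 (SE 0.10) and -0.17 (SE 0.10).

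**Figure D2:**
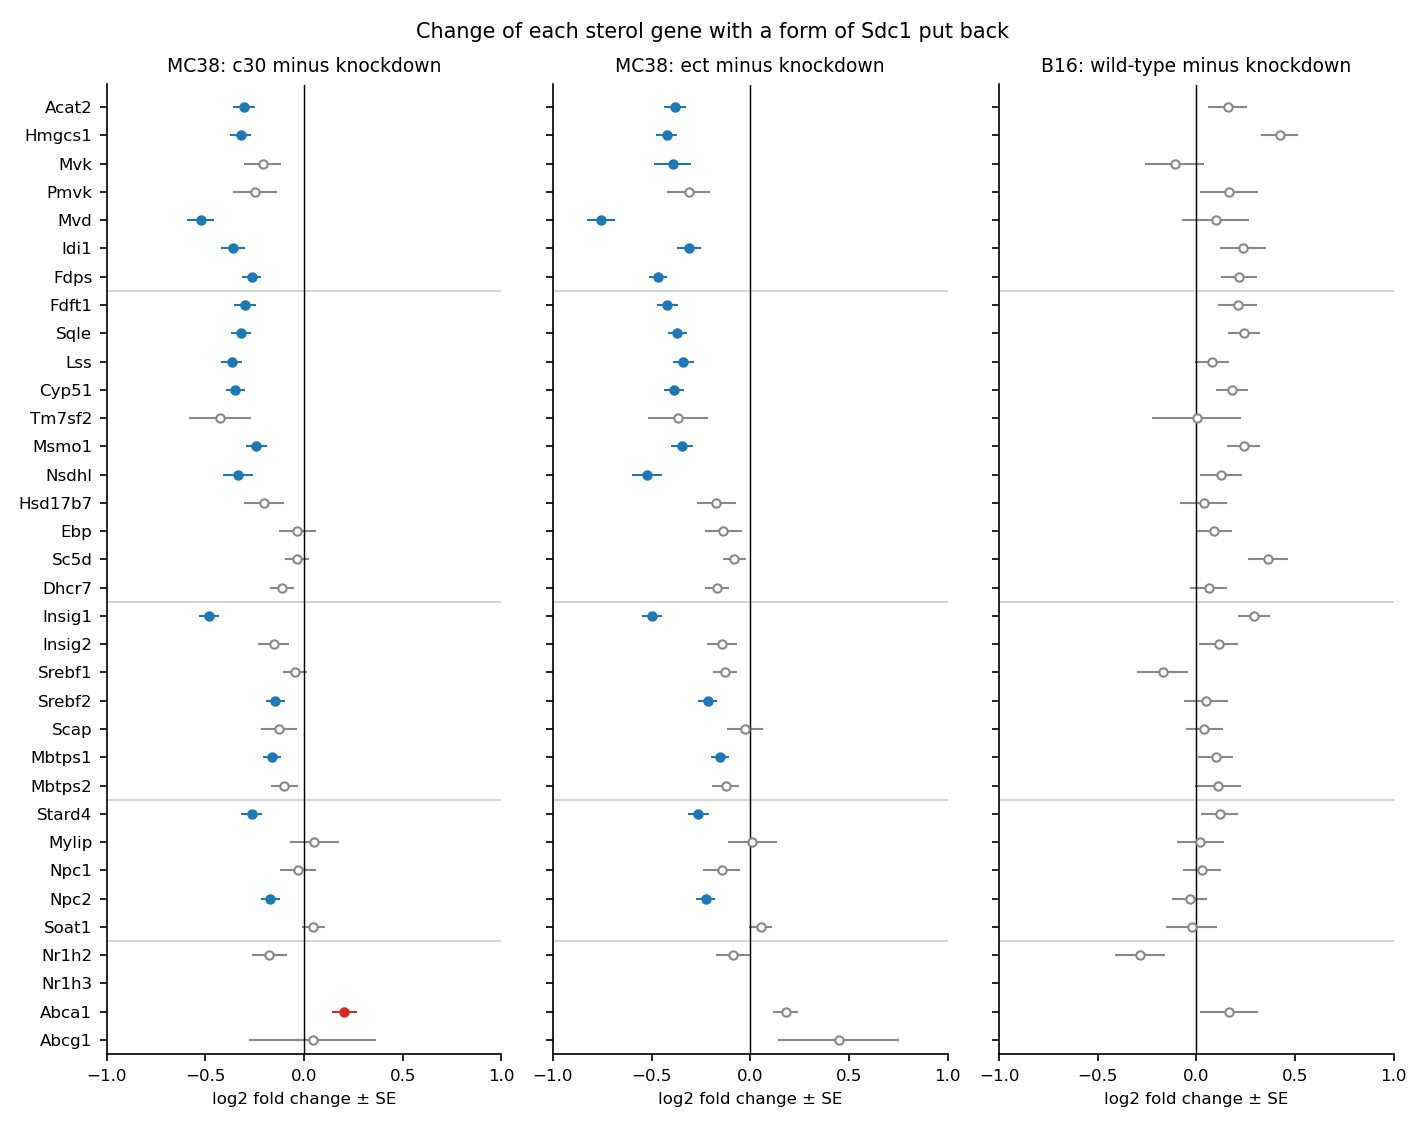
Log2 fold change of each sterol gene, with bars of 1 SE, for each form of Sdc1 against the knockdown of the same line. Filled points passed the edgeR test at an adjusted p under 0.05 (blue lower, red higher), grey lines separate the 5 roles in the order of the text, and genes with no point were not tested. Filled blue points fill the upper part of both MC38 panels, and the B16 panel holds open points only, most of them above 0.

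Of the sensing and processing genes, 3 of 7 were lower with each form: Insig1, Srebf2 and Mbtps1. Insig1 (ENSMUSG00000045294.12) holds Scap in the endoplasmic reticulum and is itself a target of the SREBP factors. It was at 270.1 and 266 CPM in the knockdown, 195 and 188 CPM with c30 and 192 and 187 CPM with ect. Both mutant groups lay far below the knockdown and overlapped each other. It was 1.40-fold lower with c30 (-0.48 (SE 0.05, edgeR adjusted p = 2.32e-12)) and 1.41-fold lower with ect (-0.50 (SE 0.05, edgeR adjusted p = 4.28e-13)), and the 95% interval of the c30 to ect difference was -0.08 to 0.12 on the log2 scale. Srebf2 (ENSMUSG00000022463.9), the factor most tied to sterol synthesis, moved less. Its level was 292 and 299 CPM in the knockdown, 271 and 263 CPM with c30 and 254 and 255 CPM with ect. The groups did not overlap, and the log2 fold change was -0.15 (SE 0.05, edgeR adjusted p = 0.0392) with c30 and -0.22 (SE 0.05, edgeR adjusted p = 0.000707) with ect. Mbtps1, the first of the activating proteases, was at 306 and 306 CPM, 267 and 279.8 CPM and 278 and 272 CPM, with -0.16 (SE 0.05, edgeR adjusted p = 0.0173) and -0.15 (SE 0.05, edgeR adjusted p = 0.0258). Srebf1, which is more tied to fatty acid synthesis, was at 91.1 and 98.6 CPM in the knockdown against 89.3 and 94.4 with c30 and 86.1 and 87.3 with ect and did not pass (-0.04 (SE 0.06) and -0.13 (SE 0.06)). Insig2, Scap and Mbtps2 did not pass either, with log2 fold changes between -0.15 and -0.02.

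Among the genes of uptake, transfer and storage, 2 of 5 were lower with each form. Stard4, which carries sterol between membranes in the cytosol, was at 159.7 and 158 CPM in the knockdown, 134 and 129.8 CPM with c30 and 132 and 132 CPM with ect. The mutant groups coincided below the knockdown (-0.27 (SE 0.05, edgeR adjusted p = 0.000303) with c30 and -0.26 (SE 0.05, edgeR adjusted p = 0.000284) with ect). Npc2, which receives cholesterol in the lysosome, went from 253 and 244 CPM to 217 and 223 CPM and 217 and 207 CPM, with -0.17 (SE 0.05, edgeR adjusted p = 0.0162) and -0.23 (SE 0.05, edgeR adjusted p = 0.000659). Its membrane partner Npc1 did not pass (-0.03 (SE 0.09) and -0.15 (SE 0.09)). Mylip, whose product marks lipoprotein receptors for degradation, and Soat1, which esterifies cholesterol for storage, had log2 fold changes of 0.05 and 0.05 with c30 and 0.01 and 0.05 with ect, and did not pass.

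On the efflux side the sign was the opposite for Abca1, which loads cellular cholesterol onto apolipoprotein. It was at 74.0 and 84.1 CPM in the knockdown, 89.7 and 92.3 CPM with c30 and 87.5 and 91.1 CPM with ect. All 4 libraries with a mutant form lay above both knockdown libraries. With c30 it passed as higher (0.20 (SE 0.06, edgeR adjusted p = 0.0294)), the 1 member that did so, and with ect it did not (0.18 (SE 0.06, edgeR adjusted p = 0.0594)). The call with c30 rested on single libraries: without c30 replicate 1, c30 replicate 2 or knockdown replicate 1 the edgeR adjusted p was 0.14, 0.26 and 0.48, and with DESeq2 it was 0.19. Abcg1 gave 41 and 34 counts in the knockdown, 26 and 39 with c30 and 44 and 55 with ect and did not pass. The LXR receptor gene Nr1h2 did not pass (-0.18 (SE 0.09) with c30 and -0.09 (SE 0.09) with ect). Nr1h3, the LXR receptor of macrophages and liver, had 5 and 4 counts in the MC38 knockdown and 9 and 8 with c30, too few to be tested.

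In all, 16 of the 33 members tested were lower and 1 higher with c30, and 17 of 33 were lower and 0 higher with ect. The same 16 genes were lower with both. Over all genes 7.75% passed in either direction with c30 and 8.16% with ect. The 15 tested members outside synthesis had a median log2 fold change of -0.13 with each form. The libraries of knockdown and c30 did not overlap for 23 members that were lower and 2 that were higher, where 24.4% and 23.8% of all genes did so. For ect these numbers were 26 and 2, where 24.5% and 24.1% of all genes did so. The calls for Acat2, Msmo1, Nsdhl, Srebf2, Mbtps1, Npc2 and Abca1 with c30 were lost under at least 1 alternative. With ect, 12 of 17 calls held under every alternative, and those for Mvk, Idi1, Srebf2, Mbtps1 and Npc2 did not. The Mbtps1 call with ect was lost with DESeq2, among others. Sums of marker lists also differed between the MC38 groups, which was not tested. The 5 stromal and endothelial markers, of which 3 or 4 reached 1 CPM, summed to 141 and 149.9 CPM in the knockdown, 104 and 112 CPM with c30 and 107 and 101 CPM with ect, with Kdr at 0 in 1 c30 library. The 12 intestinal and epithelial markers summed to 20.7 and 19.2 CPM, 17.1 and 14.1 CPM, and 13.4 and 13.8 CPM in the same order, with 2 or 3 at 1 CPM. The 7 leukocyte markers summed to 1.81 to 3.51 CPM, with Adgre1 and Cd3e at 0 in every MC38 library. Which cells these marker transcripts came from, and the part of the marker changes in the sterol results, was not tested.

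The direct comparison of the mutant forms asked whether c30 and ect differed from each other. Of the 33 members, 1 passed, Fdps, which was higher with c30 than with ect (0.20 (SE 0.05, edgeR adjusted p = 0.0215)), where 0.299% of all genes passed, 0.133% as higher and 0.166% as lower. The Fdps call was lost in each fit that left out 1 of the 4 libraries and with DESeq2 (adjusted p = 0.056). Mvd (0.23, SE 0.07, adjusted p = 0.205), Nsdhl (0.19, SE 0.08, adjusted p = 0.436) and Fdft1 (0.12, SE 0.06, adjusted p = 0.552) had an unadjusted edgeR p under 0.05 and did not pass after adjustment. With Fdps, 4 of 33 members were higher and 0 lower at that unadjusted p, where 4.24% of all genes were higher and 4.47% lower. The fall was larger with ect than with c30 for 14 of the 18 synthesis enzymes, which had a c30 minus ect value above 0. The knockdown cancels in that difference, and the same 4 libraries serve for all 18 enzymes. Both c30 libraries lay above both ect libraries for 8 of these enzymes, where 19.6% of all genes did so, and below them for 2, where 19.1% did so. For Hmgcs1 the 95% interval of c30 minus ect was -0.01 to 0.21 and for Sqle -0.05 to 0.15 on the log2 scale.

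The promoters of the genes that moved together are shown for the 5 members lower with both forms that had the smallest p-values and a window in the RefSeq promoter table (build GRCm38.p6), which runs from 250 bases before to 50 bases after the start of a gene. Insig1 lies at chr5:28071162-28071461 on the plus strand, Mvd at chr8:122443373-122443672 on the minus strand, Cyp51 at chr5:4104648-4104947 on the minus strand, Lss at chr10:76531355-76531654 on the plus strand and Hmgcs1 at chr13:119690101-119690400 on the plus strand. Each window spans the first transcribed bases of its gene and is written 5′ to 3′ on the gene's strand. Capitals mark matches to 2 motifs: TCACNCCAC, a form of the sterol regulatory element that the SREBP factors bind, and CCAAT, the box bound by NF-Y, which acts together with SREBP factors (ATTGG on the other strand).
Insig1 promoter: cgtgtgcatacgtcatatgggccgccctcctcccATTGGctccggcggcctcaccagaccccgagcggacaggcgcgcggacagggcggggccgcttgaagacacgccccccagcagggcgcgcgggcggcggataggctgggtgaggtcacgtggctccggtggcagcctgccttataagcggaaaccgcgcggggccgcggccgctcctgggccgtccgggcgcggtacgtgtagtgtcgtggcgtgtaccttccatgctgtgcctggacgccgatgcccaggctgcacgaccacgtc
Mvd promoter: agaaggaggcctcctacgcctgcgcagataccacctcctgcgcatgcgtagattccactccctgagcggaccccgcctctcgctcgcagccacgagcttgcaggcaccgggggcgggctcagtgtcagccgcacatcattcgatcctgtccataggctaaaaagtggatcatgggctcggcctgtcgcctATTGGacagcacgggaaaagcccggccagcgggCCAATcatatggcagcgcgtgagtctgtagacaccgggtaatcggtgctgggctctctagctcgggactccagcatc
Cyp51 promoter: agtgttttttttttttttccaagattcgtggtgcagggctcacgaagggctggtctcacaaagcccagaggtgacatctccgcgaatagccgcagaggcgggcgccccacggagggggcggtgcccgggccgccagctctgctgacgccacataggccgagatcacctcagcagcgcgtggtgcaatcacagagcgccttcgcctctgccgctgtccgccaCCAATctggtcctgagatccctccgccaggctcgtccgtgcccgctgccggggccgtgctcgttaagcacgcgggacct
Lss promoter: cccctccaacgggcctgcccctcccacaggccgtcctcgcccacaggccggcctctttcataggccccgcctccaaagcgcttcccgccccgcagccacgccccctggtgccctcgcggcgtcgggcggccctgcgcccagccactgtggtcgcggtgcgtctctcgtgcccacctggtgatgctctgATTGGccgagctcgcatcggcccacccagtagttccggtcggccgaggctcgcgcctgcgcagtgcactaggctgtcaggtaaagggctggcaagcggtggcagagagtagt
Hmgcs1 promoter: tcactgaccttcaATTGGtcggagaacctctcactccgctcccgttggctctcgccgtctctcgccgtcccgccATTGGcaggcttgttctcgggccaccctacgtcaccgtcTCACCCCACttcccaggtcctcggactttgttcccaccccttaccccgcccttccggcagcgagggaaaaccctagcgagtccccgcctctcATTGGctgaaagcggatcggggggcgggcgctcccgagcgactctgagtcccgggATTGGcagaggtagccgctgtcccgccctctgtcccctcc

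Both motifs were searched on both strands, and they do not share letters in these windows. CCAAT was present in all 5 windows shown. It was also present in 21 of the 28 members with a window (22 of 37 windows, 59.5%), against 37.4% of the 32851 promoter windows of the table. By role, it was found for 5 of 6 mevalonate enzymes, 9 of 9 enzymes from squalene to cholesterol, 4 of 7 sensing genes, 3 of 3 genes of uptake, transfer and storage, and 0 of 3 LXR and efflux genes. The Hmgcs1 window held 4 CCAAT matches and the only match of a member to TCACNCCAC, written TCACCCCAC, which starts 137 bases before the gene's start. That motif was in 1.24% of all windows. A match is a description of letters, and its absence says only that those letters are not in the window. Windows of Fdft1, Sqle, Fdps, Stard4, Npc1 and Abcg1 were not analysed here.

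**Figure D3:**
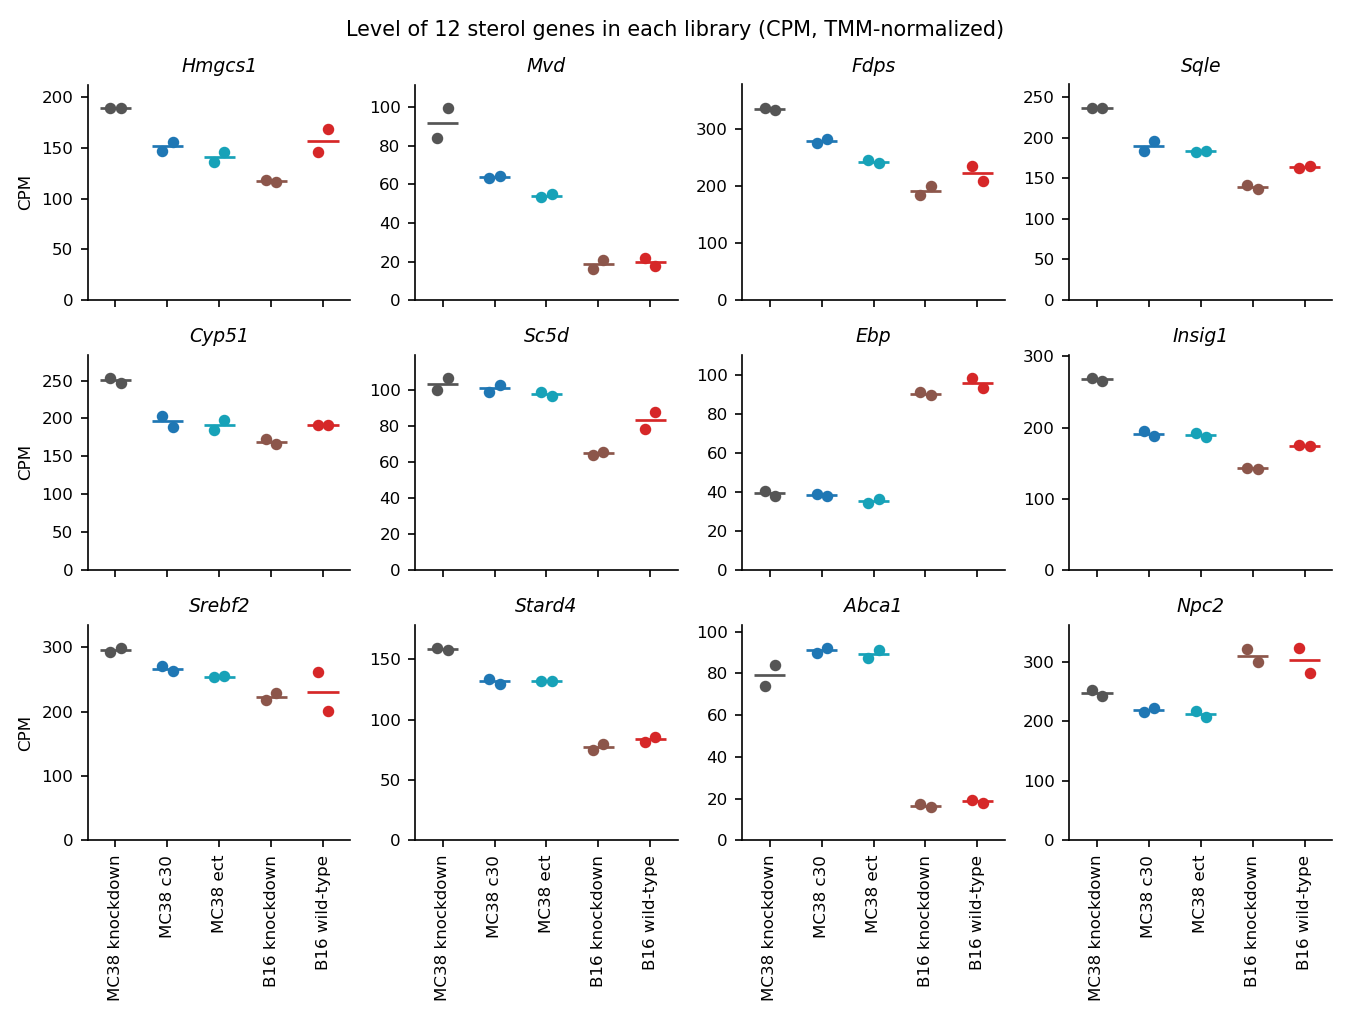
Level of 12 sterol genes (CPM, TMM-normalized) in each library. Points are libraries and bars the means of 2 libraries, and each panel has its own axis from 0. Hmgcs1, Sqle, Cyp51 and Insig1 are lower in both mutant groups than in the MC38 knockdown. Their B16 wild-type points lie above those of the B16 knockdown without passing the test, Abca1 passed as higher with c30 and not with ect, and Ebp and Npc2 are higher in B16 than in MC38.

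Other genes of sterol biology, 46 on a separate list of which 45 were matched were also tested. With c30, 4 of 41 tested were lower and 2 higher, where 4.45% and 3.3% of all genes were. Vldlr, a receptor for triglyceride-rich lipoproteins, went from 35.1 and 32.9 CPM in the knockdown to 24.0 and 23.7 CPM with c30 (-0.51 (SE 0.11, edgeR adjusted p = 0.000461)), and its libraries did not overlap. The oxysterol-binding protein gene Osbpl9 was at -0.24 (SE 0.05) and Nceh1, a cholesteryl ester hydrolase, at -0.31 (SE 0.09). Cyp7b1, an oxysterol hydroxylase, rose at a very low level, from 3 and 3 counts in the knockdown to 18 and 12 with c30 (edgeR adjusted p = 0.0175). Arl4c, an LXR target, had 0.24 (SE 0.06). The LXR targets of this list went both ways. Of 3 tested, 2 were below 0 and 1 above with each form, at a median of -0.19 with c30 and -0.30 with ect. With c30, 1 passed as higher and 0 as lower, and with ect 1 passed as higher and 1 as lower. Lpcat3 was at 27.6 and 29.9 CPM in the knockdown, 26.0 and 24.3 CPM with c30 and 21.6 and 23.5 CPM with ect. With ect, 5 of 41 were lower and 3 higher, where 4.61% and 3.55% of all genes were. Tmem97, which is regulated by SREBP and binds sterols, was at 81.1 and 75.0 CPM in the knockdown and 63.0 and 57.5 CPM with ect (-0.38 (SE 0.07, edgeR adjusted p = 4.89e-05)), with no overlap. The lipoprotein receptor gene Scarb1 (-0.23 (SE 0.06)) and Osbpl9 (-0.23 (SE 0.05)) were also lower, as was Rnf145, a sterol-regulated ubiquitin ligase (-0.20 (SE 0.06)). Syvn1, a ligase of protein quality control in the endoplasmic reticulum, was higher (0.27 (SE 0.08)). In c30 against ect 0 of 41 passed. At an unadjusted edgeR p under 0.05, 3 were lower and 2 higher, where 4.47% of all genes were lower and 4.24% higher.

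In B16 the comparison asked which genes differed once wild-type Sdc1 was put back. The synthesis enzymes held 1453 and 1464 CPM in total in the knockdown libraries and 1680 and 1655 CPM with wild-type Sdc1, a mean 14.4% higher, and the groups did not overlap. Single genes did not pass: 0 of 32 members tested and 0% of the 14336 genes tested were called by edgeR. At an unadjusted edgeR p under 0.05, 7 of the 32 members were higher and 1 lower, where 2.44% of all genes were higher and 3.08% lower. DESeq2 and voom called 0 members, and 10 and 0 of all genes. The log2 fold change was above 0 for 17 of 18 synthesis enzymes, with a median of 0.16 against 0.00 over all genes. For 11 of the 18 the lower wild-type library was above the higher knockdown library, where 17.1% of all genes did so. The common coefficient of variation between libraries of a group was 8.68% in the B16 fit and 4.84% in the MC38 fit.

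Hmgcs1 was at 119 and 116 CPM in the B16 knockdown and 146 and 168 CPM with wild-type Sdc1. The groups did not overlap, and the log2 fold change was 0.42 (SE 0.09, edgeR adjusted p = 0.444). Insig1 was at 144 and 142 CPM and 175 and 174 CPM, with little spread in either group, and had 0.29 (SE 0.08, edgeR adjusted p = 0.767). Sc5d, which did not pass in MC38, had the second largest difference of the enzymes in B16, from 63.8 and 65.7 CPM to 78.2 and 88.0 CPM (0.36 (SE 0.10, edgeR adjusted p = 0.767)). For Sqle the levels were 141 and 136 CPM and 163 and 165 CPM (0.24 (SE 0.08)), and for Msmo1 114 and 114 CPM and 133 and 135 CPM (0.24 (SE 0.08)). Both genes were higher in both wild-type libraries. Srebf2 was at 218 and 229.6 CPM in the knockdown and 261 and 201 CPM with wild-type Sdc1, so that its wild-type libraries lay on either side of the knockdown. The LXR receptor gene Nr1h2 had the lowest value of the members, -0.29 (SE 0.13), from 63.9 and 75.0 CPM to 63.0 and 50.6 CPM.

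Which members passed in B16 depended on single libraries. Without wild-type replicate 1, 9 members passed with 1295 of all genes: Hmgcs1, Idi1, Sqle, Cyp51, Msmo1, Sc5d and Insig1 higher, and Srebf1 and Nr1h2 lower. Without wild-type replicate 2, 6 passed, all higher, with 326 of all genes: Acat2, Hmgcs1, Fdps, Fdft1, Insig1 and Srebf2. Each of these fits leaves 1 wild-type library, which is assumed to vary as the knockdown libraries do. Hmgcs1 and Insig1 were called in both, at log2 fold changes of 0.53 and 0.31 for Hmgcs1 and 0.29 and 0.29 for Insig1. Wild-type replicate 2 also stood apart in base composition. Across 10857 genes, a gene's deviation in that library from its mean over the 4 B16 libraries had a correlation of -0.62 with its GC content. The correlation was 0.32 in wild-type replicate 1 and 0.08 and 0.38 in knockdown replicates 1 and 2. The 4 deviations of a gene add to 0, so a negative trend in 1 library raises the others, and these values are not independent. Of the members named for the fit without wild-type replicate 1, the higher ones had 41.9% (Idi1) to 48.6% (Sqle) GC. The lower ones, Srebf1 and Nr1h2, had 58.4% and 60.6%. Those named for the fit without wild-type replicate 2, all higher, had 43.1% (Hmgcs1) to 57.9% (Srebf2). The part of base composition in these calls was not tested beyond the correction that follows. After correcting for GC content and length of transcripts, 1 member, Hmgcs1, passed, with 19 of all genes. In B16 the stromal and endothelial markers summed to 10.2 to 13.1 CPM and the leukocyte markers to 3.56 to 4.87 CPM, with Cd3e at 0 in all 4 libraries.

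**Figure D4:**
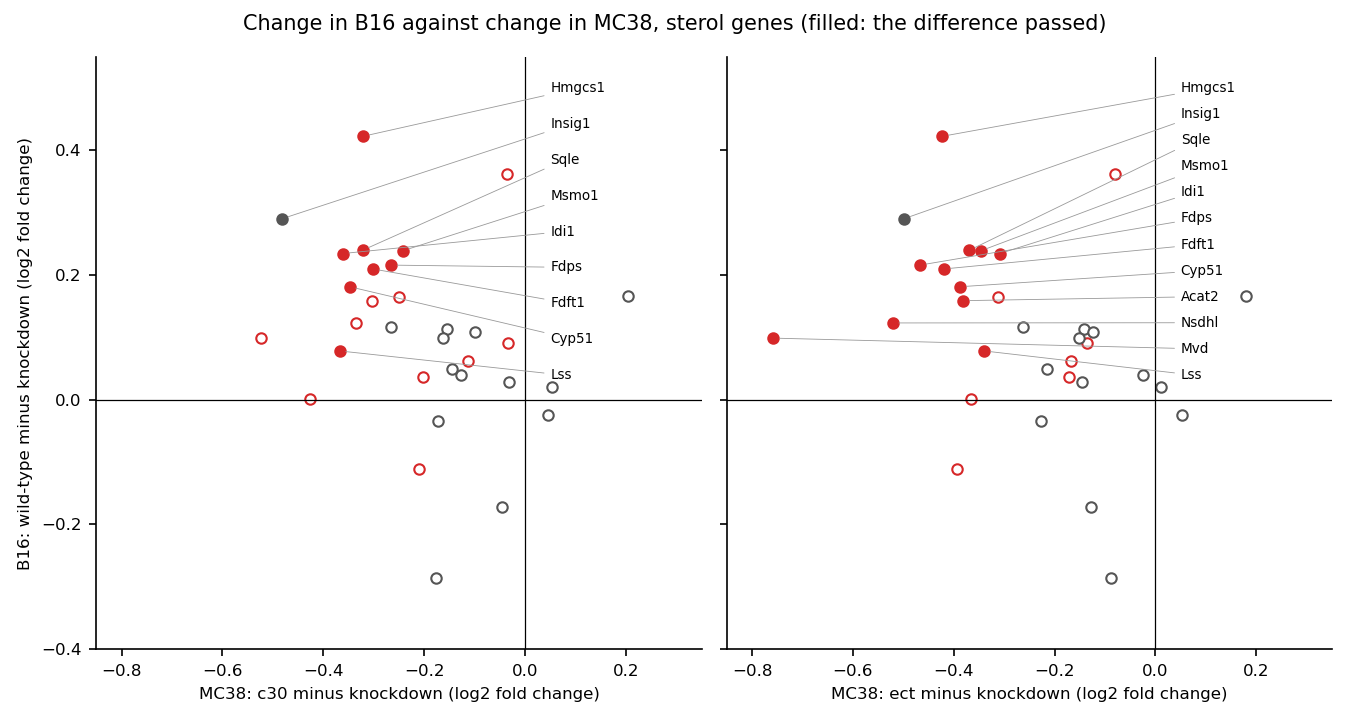
Log2 fold change of each member in B16 (wild-type Sdc1 minus knockdown, vertical axis) against that in MC38 (c30 left, ect right, minus knockdown, horizontal axis). Red points are synthesis enzymes, grey points other members, and filled, named points are those for which the B16 and MC38 changes differed by the edgeR test. The filled points all lie in the upper left part, below 0 in MC38 and above 0 in B16.

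The B16 and MC38 changes were then set against each other in 1 fit of all 10 libraries, which tests the difference itself. This fit pools the spread of both lines. Its common coefficient of variation was 6.65%, below the 8.68% of the B16 fit and above the 4.84% of the MC38 fit. The B16 wild-type libraries differed from each other more than those of any other group. The p-values of the difference thus rest partly on the closer MC38 libraries and may be too small for B16. The B16 change was more positive than that of c30 in MC38 for 9 of 33 members (0.148% of the 16877 genes tested passed in that direction, and 0.284% in either). These were 8 synthesis enzymes and Insig1. Against ect it was more positive for 12 of 33 (0.284% of all genes in that direction, 0.486% in either), of which 11 were synthesis enzymes and the other again Insig1. The 9 genes of the first set were all in the second, and both sets share the 4 B16 and the 2 MC38 knockdown libraries. Insig1 had a difference of 0.77 (SE 0.09, edgeR adjusted p = 8.11e-05) against c30 and 0.79 (SE 0.09, edgeR adjusted p = 2.53e-05) against ect, and Hmgcs1 of 0.74 (SE 0.10, edgeR adjusted p = 0.000434) and 0.84 (SE 0.10, edgeR adjusted p = 5.12e-05). Both held in every alternative run. For Sqle the differences were 0.56 (SE 0.09) and 0.61 (SE 0.09), and for Cyp51 0.53 (SE 0.09) and 0.57 (SE 0.09). Lss, whose B16 change was small (0.08 (SE 0.09)), differed by 0.44 (SE 0.09) and 0.42 (SE 0.09). Of all 18 synthesis enzymes, 17 were below 0 with both MC38 forms and above 0 in B16, Mvk being the exception. Some of these values were near 0. Among the enzymes from squalene to cholesterol the smallest B16 value was 0.0005. With c30, Ebp and Sc5d were at -0.03 and -0.04 and each kept that sign in 12 of 13 alternatives. The share of all genes with this pattern of signs was not counted. The efflux gene Abca1 had values above 0 in all 3 settings and a difference near 0 (-0.04 (SE 0.14) against c30 and -0.01 (SE 0.15) against ect). The lines differ in the form of Sdc1 as well as in origin, so line and form cannot be told apart. The counts of 9 and of 12 members were smaller in every fit without 1 of the knockdown libraries or 1 of the mutant libraries compared. They were larger without 1 of the B16 wild-type libraries. The number of all genes called moved the same way in each case. Each of these fits leaves 1 library in a group.

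**Figure D5:**
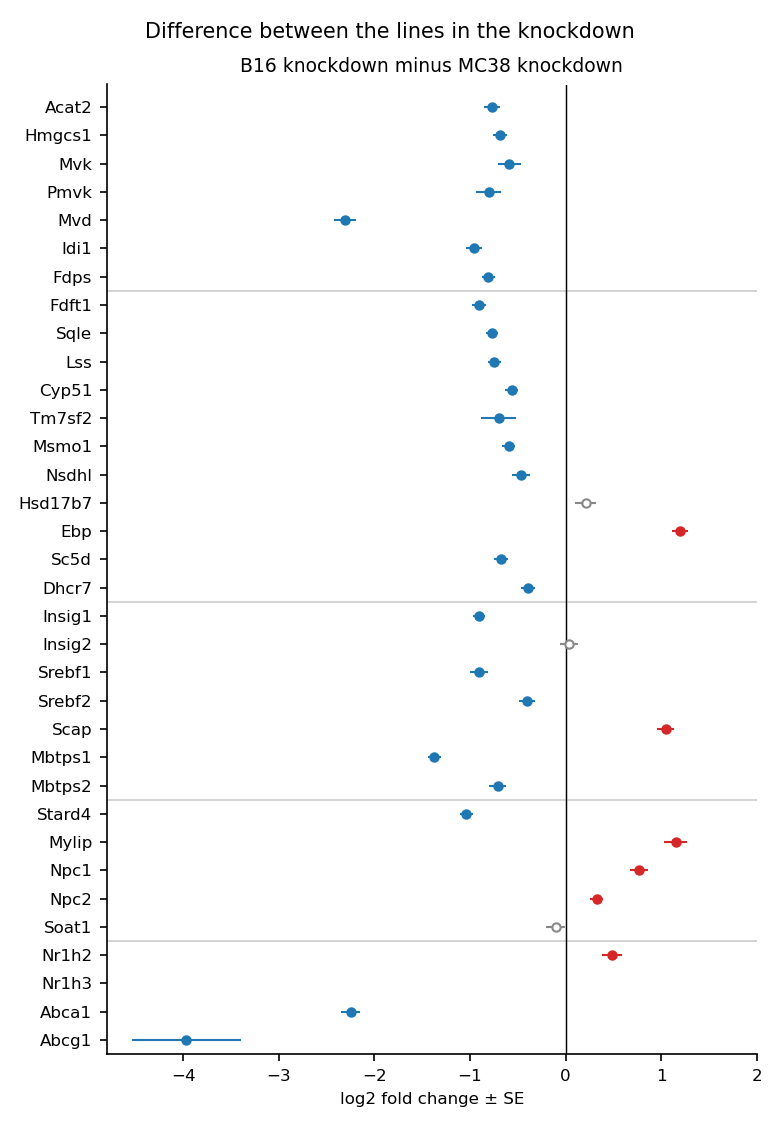
Log2 fold change of each member between the knockdown cells of the 2 lines (B16 minus MC38), with bars of 1 SE. Filled points passed the edgeR test (blue lower and red higher in B16), and grey lines separate the 5 roles. Most synthesis enzymes lie between -1 and 0, Mvd, Abca1 and Abcg1 lie furthest below 0, and Ebp, Scap and Mylip lie above 1.

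The level of the pathway itself differed between the knockdown cells of the lines. The summed synthesis enzymes were 36.5% lower in B16 than in MC38, and 24 of 33 members tested were lower and 6 higher in B16. Over all 16877 genes 68.2% passed, 34.3% as lower and 33.8% as higher, so a call alone separates little here. The libraries did not overlap for 24 members lower and 7 higher in B16, where 42.7% and 41.7% of all genes did so. The members' median log2 fold change was -0.69 against -0.01 over all genes. Among the enzymes, 16 of 18 were lower, with log2 fold changes of -0.96 to -0.39 for all but Mvd. Mvd had a far larger difference: it was at 84.1 and 99.8 CPM in MC38 and 16.3 and 20.9 CPM in B16, 4.96-fold lower (-2.31 (SE 0.12, edgeR adjusted p = 6.35e-16)). Ebp, the sterol isomerase, ran the other way, at 40.8 and 38.0 CPM in MC38 and 91.2 and 89.7 CPM in B16 (1.20 (SE 0.09, edgeR adjusted p = 9.20e-13)). It was the 1 enzyme that was higher in B16, and Hsd17b7 did not pass (0.21 (SE 0.11)).

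The sensing genes split between the lines. Scap was 2.06-fold higher in B16, at 82.2 and 92.0 CPM against 39.3 and 45.1 CPM (1.05 (SE 0.09, edgeR adjusted p = 7.66e-11)), while the protease gene Mbtps1 was 2.59-fold lower, at 116 and 120.5 CPM against 306 and 306 CPM (-1.38 (SE 0.07, edgeR adjusted p = 2.56e-16)). Insig1 was 1.87-fold lower (-0.91 (SE 0.06)) and Insig2 did not pass (0.04 (SE 0.09)). Srebf1 (-0.90 (SE 0.09)), Mbtps2 (-0.71 (SE 0.09)) and Srebf2 (-0.40 (SE 0.08)) were lower as well. Of the uptake and storage genes, Mylip (1.15 (SE 0.12)), Npc1 (0.77 (SE 0.09)) and Npc2 (0.33 (SE 0.07)) were higher in B16, Stard4 was lower (-1.04 (SE 0.07)), and Soat1 did not pass (-0.10 (SE 0.10)).

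The summed LXR and efflux genes were 34.3% lower in B16 than in MC38. Abca1 was at 74.0 and 84.1 CPM in the MC38 knockdown and 17.5 and 15.7 CPM in the B16 knockdown, 4.75-fold lower (-2.25 (SE 0.10, edgeR adjusted p = 2.81e-17)). Abcg1, its partner in export to lipoprotein particles, had 41 and 34 counts in MC38 and 1 and 3 in B16, no more than the 3 counts that a 0 allows. Nr1h2 was higher in B16 (0.48 (SE 0.11)), at 63.9 and 75.0 CPM against 49.9 and 49.2 CPM. These values compare 1 line with 1 line, and the lines also differ in their melanocyte and stromal marker sums, whose part was not tested. Among the other genes of sterol biology, 18 of 43 tested were lower and 16 higher in B16, where 34.3% of all genes were lower and 33.8% higher. The smallest p-values were those of Arl4c, Smpdl3a, Vldlr, Lipa and Gramd1b. Arl4c was at 95.4 and 88.8 CPM in the MC38 knockdown and had 2 and 0 counts in the B16 knockdown. Vldlr likewise was at 35.1 and 32.9 CPM in MC38 and had 0 and 3 counts in B16. Smpdl3a, an LXR target, had 2 and 1 counts in MC38 and 37.2 and 38.6 CPM in B16, so the LXR targets went in both directions. Lipa, the lysosomal lipase that frees cholesterol from esters, was at 41.9 and 43.9 CPM in MC38 and 137 and 139 CPM in B16 (1.69 (SE 0.08)). Gramd1b, which moves cholesterol from the plasma membrane, was 3.75-fold higher in B16 (1.91 (SE 0.10)).

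Some members share annotated exon bases with another gene, and the sources used here do not say whether counting used strand. In the GRCm38 annotation this held for 11 of 34 members, 7 of them with a protein-coding gene. The largest shares were for Fdps, whose exons share 77.4% of their bases with the overlapping locus Gm43738 on the same strand, Mbtps2 (36.1% with Yy2) and Fdft1 (20.9% with Ctsb on the other strand). Scap (18.6%), Hmgcs1 (16%) and Idi1 (10.7%) also shared over 10% of their exon bases, each with a locus on the other strand. A share of exon bases is not a share of reads, so how far the counts of these 6 genes are affected is not known. That holds for the c30 to ect call of Fdps and the results for Hmgcs1.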

How the data were processed

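RNA of cultured mouse tumour cells was sequenced from both ends after a standard messenger RNA library preparation, per the labels' protocols. The authors deposited 1 raw count per gene and library, and the values were whole numbers. Per the submitters' processing notes, Trimmomatic, HISAT2 2.0.5, HTSeq, featureCounts and DESeq2 were used with build GRCm39. How these tools were combined, which annotation release was counted and whether strand was used are not given in the sources used here. Symbols were matched by Ensembl identifier for 51884 of 60676 rows.

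Libraries were grouped by the line and genotype in the titles. Genes were tested on the whole table by the robust, 2-sided quasi-likelihood test of edgeR 4.0.16 (R 4.3.3) after its filterByExpr filter and TMM scaling and called at a Benjamini-Hochberg adjusted p under 0.05. The 6 MC38 libraries shared 1 fit, the 4 B16 libraries another, and comparisons across lines used all 10. Standard errors are from the fitted model, and intervals cover 95%. Printed levels are CPM of TMM-normalized library sizes over all 10 libraries, and marker sums are CPM of the library total. Floors of 3 counts cover counting error only.

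The members and gene lists were chosen with earlier results of these data known. All 34 members were named by rule, of other sterol genes those called (at most the 5 with the smallest adjusted p per comparison), and promoters for up to 5 members called with both MC38 forms. Alternatives were RLE size factors, DESeq2 1.42.0, voom (limma 3.58.1), no low-count filter, a minimum of 5 CPM in 2 libraries, replicate number as a block, all 10 libraries in 1 fit, only the 4 libraries compared and leaving out each library. Chosen after seeing the data were a correction for GC content and transcript length (mgcv 1.9.3) and a block with crossed numbers in B16. The tests were tried on simulated counts. Figures were drawn with matplotlib 3.10.9.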

Additional observations from a re-analysis of the deposited data

Results flagged for a closer look

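For 12 genes the change with wild-type Sdc1 in B16 differed from the change with a mutant form in MC38 by the test of the difference itself (edgeR, all 10 libraries, adjusted over all genes). On the log2 scale, B16 minus c30 was 0.74 for Hmgcs1, 0.59 for Idi1, 0.48 for Fdps and 0.51 for Fdft1. It was 0.56 for Sqle, 0.44 for Lss, 0.53 for Cyp51, 0.48 for Msmo1 and 0.77 for Insig1. B16 minus ect was 0.54 for Acat2, 0.84 for Hmgcs1, 0.86 for Mvd and 0.54 for Idi1. It was 0.68 for Fdps, 0.63 for Fdft1, 0.61 for Sqle and 0.42 for Lss. The remaining differences from ect were 0.57 for Cyp51, 0.58 for Msmo1, 0.64 for Nsdhl and 0.79 for Insig1. All of these are synthesis enzymes apart from Insig1. The wild-type form was measured in B16 and the mutant forms in MC38, so line and form cannot be told apart. The fit also pooled the spread of both lines, which was narrower than that of B16 alone. Of the other sterol genes, Tmem97 differed between B16 and ect by 0.58. Groups of 2 libraries are too small to test a single library as an outlier.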

How the results depend on the processing

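Every member that passed kept its sign under all alternatives run for its comparison, and 10 of 17 calls with c30, 12 of 17 with ect and 29 of 30 between lines held in all of them. Fitted with all 10 libraries, 10 members passed with c30 (17 in the MC38 fit), 0 in c30 against ect and 1 in B16. Leaving out single libraries gave 12 to 16 members with c30, 0 in c30 against ect, 0 to 9 in B16, 3 to 14 for B16 minus c30 and 5 to 17 for B16 minus ect. DESeq2 gave 0 in c30 against ect, limma-voom gave 5 for B16 minus c30, no filter gave 1 in B16, and the GC and length correction gave 1 in B16 and 16 for B16 minus c30. The cause of these shifts was not tested, and leaving out a library does not separate having fewer libraries from which library was dropped. Calls over all genes moved by over 1.5 times as follows. With c30, 1165 became 519 with DESeq2, 254 with all 10 libraries (64 higher and 190 lower, against 496 and 669), 464 without c30 replicate 1 and 485 without replicate 2. With ect, 1227 became 596 with DESeq2, 249 with all 10 libraries (65 higher and 184 lower, against 534 and 693), 787 without ect replicate 1 and 776 without replicate 2. In c30 against ect, 45 became 15 with DESeq2, 8 with all 10 libraries, 72 with only the 4 libraries compared, 68 with the GC and length correction, and 21 and 18 without c30 replicates 1 and 2. In B16, 0 became 42 with no filter, 10 with DESeq2, 27 with all 10 libraries, 19 with the GC and length correction and 3 to 1295 without single libraries. For B16 minus c30, 48 became 159, 75, 17 and 213 with no filter, DESeq2, limma-voom and the correction, and for B16 minus ect 82 became 189, 41 and 323 with no filter, limma-voom and the correction. Without single libraries these were 13 to 1096 and 13 to 1170. Same-numbered libraries did not deviate together in MC38 (r = 0.04, -0.01 and 0.01 over 11009 genes). In B16 r was -0.18, so libraries of unlike number deviated together to a small degree. Whether the libraries were handled in pairs was not tested. With replicate number as a block 17 members passed with c30, 17 with ect, 1 in c30 against ect, 0 in B16 (15 of all genes), 30 between lines, 6 for B16 minus c30 and 10 for B16 minus ect, and with crossed numbers 0 in B16 (5 of all genes). Depth limits Abcg1, Nr1h3 and Tm7sf2, and 2 libraries per group limit every value.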
